A study of Mus musculus with 12 samples.

Results

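Of the 3294 c-Fos peaks on the 19 autosomes and X, 434 lay in the interior of a short protein-coding gene, which is 13.2% (95% exact binomial interval 12.04% to 14.38%). The deposited list held 3295 peaks, 1 of them on an unplaced sequence. A peak was counted as interior to a short gene when its midpoint fell inside a protein-coding gene, more than 1 kb from every protein-coding gene end, and the longest gene over the midpoint was under 100 kb. Genes came from the RefSeq table of GRCm38.p6, the assembly behind mm10, with gene starts from position 3000000 upwards. The remaining peaks divided into 1165 inside genes of 100 kb or longer, 1475 outside protein-coding genes and 220 within 1 kb of a gene end. The rule used position and gene length only, so width, neighbours, gene identity and sequence were free to vary.

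The peaks came from CUT&RUN on CA1, a pyramidal cell field of the hippocampus, in C57BL/6 mice aged 3 to 4 weeks. All 4 groups carried 1 copy each of CaMK2a-Cre and LSL-Sun1-GFP, so that Cre, driven by a promoter active in excitatory forebrain neurons, switched on a green nuclear envelope tag by which nuclei were sorted. Kainic acid, which excites neurons through glutamate receptors and causes seizures, or PBS was given 2 to 3 h before collection, and 50000 nuclei per reaction were incubated with an in-house polyclonal c-Fos antibody or with rabbit IgG. Each of the 4 combinations of treatment and antibody had 3 replicates, described as biological, and the number of mice behind each is not given. The list analysed joins the kainic acid groups, c-Fos against IgG, and holds positions without any score, depth or value per library. No spread between replicates can therefore be given, intervals cover counting error over peaks or genes alone, and differences between classes of peaks were not tested. Binding after PBS was not analysed here, so nothing below separates binding that kainic acid raised from binding already present.

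c-Fos is made within minutes to hours of strong neuronal firing. It cannot dimerise with itself and binds DNA with a Jun partner as AP-1, which recognises TGA, 1 variable base and TCA. In neurons AP-1 is known mainly from enhancers, which can lie between genes or in introns, and many activity-induced genes also have start sites that respond to calcium and cAMP through the related cAMP response element. The gene table used here has no exons, so a peak inside a gene may be intronic, exonic or at an internal start site.

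Where transcript starts were listed, the DNA under some of these peaks could be read directly. RefSeq start windows of GRCm38.p6, covering 250 bases before to 50 after each listed start, overlapped 26 interior peaks in 33 windows. Starts were listed for the hosts of 338 of the 434 peaks, so the 26 are not a share of all of them. The AP-1 motif TGANTCA, in which N is any base and which reads the same on both strands, occurred in 6 of the 33 windows (18.2%, 6.98% to 35.5%) at 6 different genes. It occurred in 7.85% of all 32619 windows. The 250 bases before the start are shown for 5 of these 6 genes, because they let the AP-1 motif be seen beneath the peak. Capitals mark TGANTCA and, in Rcan1, also the cAMP response element TGACGTCA.
Rcan1: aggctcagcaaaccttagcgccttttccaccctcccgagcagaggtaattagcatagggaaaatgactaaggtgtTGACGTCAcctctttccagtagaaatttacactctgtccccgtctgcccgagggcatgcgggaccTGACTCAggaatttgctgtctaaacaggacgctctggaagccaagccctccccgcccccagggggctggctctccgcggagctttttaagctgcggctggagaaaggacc
Csrnp1: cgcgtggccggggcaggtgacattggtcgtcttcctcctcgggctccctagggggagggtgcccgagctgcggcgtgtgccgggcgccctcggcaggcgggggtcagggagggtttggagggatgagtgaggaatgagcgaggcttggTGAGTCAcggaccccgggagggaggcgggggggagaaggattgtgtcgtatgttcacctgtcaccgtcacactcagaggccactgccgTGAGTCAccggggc
Slc6a5: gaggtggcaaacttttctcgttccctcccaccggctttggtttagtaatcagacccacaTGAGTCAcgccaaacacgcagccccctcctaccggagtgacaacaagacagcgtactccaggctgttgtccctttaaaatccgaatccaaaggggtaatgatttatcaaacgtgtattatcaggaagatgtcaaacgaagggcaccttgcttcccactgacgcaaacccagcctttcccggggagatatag
Zfp790: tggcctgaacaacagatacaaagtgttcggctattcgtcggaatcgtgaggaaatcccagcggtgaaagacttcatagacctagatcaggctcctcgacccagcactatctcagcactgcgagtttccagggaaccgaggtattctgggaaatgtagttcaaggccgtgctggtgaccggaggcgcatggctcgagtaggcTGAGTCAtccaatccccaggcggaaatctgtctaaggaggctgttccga
Sult2b1: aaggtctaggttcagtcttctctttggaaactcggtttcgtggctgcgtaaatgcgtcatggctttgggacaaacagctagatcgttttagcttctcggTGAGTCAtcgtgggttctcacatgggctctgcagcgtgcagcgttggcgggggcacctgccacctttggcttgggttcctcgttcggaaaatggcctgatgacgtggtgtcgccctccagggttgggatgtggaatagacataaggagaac
The Rcan1 stretch is chr16:92400079-92400328 on the minus strand, and the start it precedes is an internal one, far downstream of the 5′ end of the gene. Csrnp1 is read from chr9:119983024-119983273 on the minus strand. Slc6a5 is chr7:49910049-49910298 on the plus strand, Zfp790 is chr7:29815822-29816071 on the plus strand, and Sult2b1 is chr7:45742479-45742728 on the minus strand.

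Rcan1, which encodes an inhibitor of the calcium-dependent phosphatase calcineurin, had its peak at chr16:92398887-92401286, 2400 bp wide. The peak midpoint was 9 bp from the internal start shown above and 66.1 kb from the 5′ end of the 74.2 kb gene. In its window TGACGTCA began at base −175 and TGACTCA at base −110, counted from the start. It was the 1 window of the 33 with TGACGTCA (3.03%), beside 1.80% of all windows.

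Csrnp1, a nuclear protein gene induced as an immediate early gene, held 2 AP-1 motifs, beginning at −102 and −14. Its peak, chr9:119982193-119984002, spanned 1810 bp of a 13.6 kb gene, with the midpoint 75 bp from that start. Slc6a5, the glycine transporter of inhibitory glycinergic neurons, had the motif at −191 and its midpoint 52 bp from the start. In Zfp790, a zinc finger gene, the motif began at −49, and in Sult2b1, a sterol sulfotransferase gene, at −151. Rnh1, the ribonuclease inhibitor gene, was the other gene with a match, at −179, with the peak midpoint 320 bp downstream of that start. All 6 windows held TGACTCA or TGAGTCA, the forms AP-1 binds most tightly.

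Windows at peaks in other places held the motif at shares whose intervals overlapped that of the short genes. TGANTCA occurred in 7 of 18 windows under peaks inside longer genes (38.9%, 17.3% to 64.3%), 12 of 64 under peaks outside genes (18.8%) and 34 of 223 under gene-end peaks (15.2%, 10.8% to 20.6%). Among all 397 listed windows of the genes that contain a peak, bound or not, 20 held it (5.04%, 3.10% to 7.67%), against 6.74% of windows of short genes that could contain such a peak. A match is a description of letters and does not show which base c-Fos occupied. Sequence under the peaks beyond these windows was not analysed here.

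The host genes numbered 392, of which 353 held 1 interior peak, 36 held 2, and 3 held 3. A gene could be a host only if some of it lay more than 1 kb from every gene end, which held for 16157 of the 19098 protein-coding genes under 100 kb. Of those 16157 genes, 2.43% contained an interior peak, and this share is the background for every gene list below. Because longer genes offer more room, the background also depends on length: 0.428% of genes under 10 kb, 1.31% of genes of 10 to 25 kb, 2.81% of genes of 25 to 50 kb and 8.13% of genes of 50 to 100 kb.

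Activity-induced transcription factors had interior peaks in 4 of their 27 short genes (14.8%, 4.19% to 33.7%), although their median length was 9.25 kb. The 4 were Klf6 and Klf10, zinc finger factors of the Krüppel-like family, the circadian repressor Per2, and Csrnp1. Klf6, 8.91 kb long, held 2 separate peaks, chr13:5862991-5864597 (1607 bp) and chr13:5865914-5866649 (736 bp), centred 2.31 and 4.79 kb downstream of its start. Klf10 held chr15:38298589-38300243, 1655 bp wide, 1.29 kb from its nearer end. The Per2 peak, chr1:91457320-91458776, lay 1.30 kb from an end of the 43.4 kb gene. Both of the latter peaks were thus close to the 1 kb limit.

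Effector genes induced by activity had interior peaks in 2 of 44 (4.55%, 0.555% to 15.5%; median length 8.98 kb), namely Arc and Inhba. Arc, which encodes a synaptic protein that drives removal of AMPA receptors, was covered almost whole. Its peak, chr15:74669102-74673057, was 3956 bp wide and the gene 3.49 kb long, and the peak ran 487 bp past the upper end of the gene. The peak counted as interior only because its midpoint was 1.49 kb from that nearest end. Inhba, encoding the activin A subunit, held 2 peaks of 1511 and 1072 bp, at chr13:16006925-16008435 and chr13:16009372-16010443. Both lay inside the 27.4 kb annotated gene yet upstream of its listed start, by 4171 and 1943 bp. Interior peaks upstream of every listed start of their host numbered 11 of the 338 whose host had listed starts (3.25%), and for these the gene body reaches further 5′ than the start table.

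Among genes of bZIP proteins, the family to which c-Fos belongs, 2 of 24 held an interior peak (8.33%, 1.03% to 27.0%). These were Atf1, a factor that binds cAMP response elements, with chr15:100251026-100252636 centred 24.0 kb from its start, and Mafk, a small Maf protein, with chr5:139796603-139798319 centred 5.92 kb from its start. Of the Klf and Sp genes 3 of 24 were hosts (interval 2.66% to 32.4%), adding Sp2 to Klf6 and Klf10. With 2 to 4 hosts a list, each of these intervals is wide, and those of the bZIP and effector lists include the 2.43% over all short genes. The median length of the effectors fell in the class under 10 kb, where the background was 0.428%, below their interval. That class does not cover the whole list, since Inhba, at 27.4 kb, fell where the background was 2.81%. No background matched for length was computed.

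**Figure D1:**
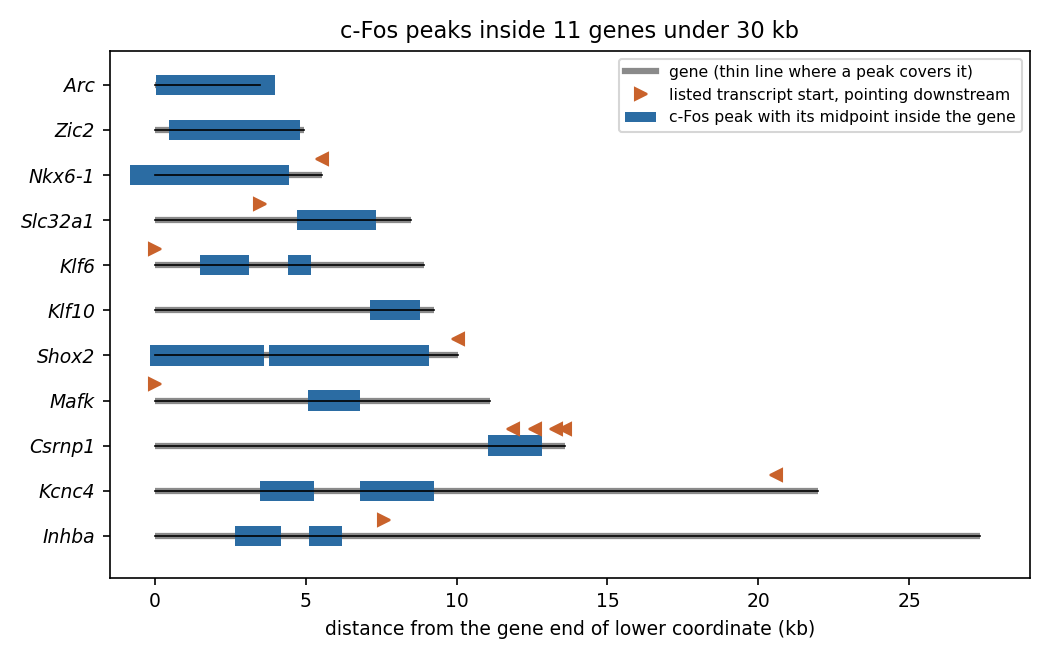
Interior c-Fos peaks (blue bars) drawn to scale inside 11 genes under 30 kb, with distance from the gene end of lower coordinate in kb, listed starts as orange triangles, and genes chosen for the text after their values were seen. Arc, Zic2 and Nkx6-1 are covered over most of their length, whereas the peaks of Klf6, Kcnc4 and Inhba are pairs that cover part of the gene. Arc, Zic2 and Klf10 had no listed start and carry no triangle.

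Many of the very widest interior peaks sat on genes of developmental transcription factors. Among the 10 widest, 7 were in such genes, among them Sim1 (13651 bp), Shox2 (5309 bp), Nkx6-1 (5260 bp), Zic2 (4355 bp), Tbx5 (4238 bp) and Tbx2 (4225 bp). The genes named encode a bHLH-PAS factor of the hypothalamus, a pair of homeodomain proteins, a zinc finger protein and 2 T-box proteins, all known for patterning embryonic tissues. The 3 outside such genes were Sfi1, a centrosome protein gene (12738 bp), Cmc1, a mitochondrial assembly factor gene (5336 bp), and Spink8, a protease inhibitor gene known as a marker of CA1 pyramidal neurons (4679 bp). Sfi1 was thus the second widest of all. Among the 20 widest, 8 were in genes named on the developmental factor list described below. Ranks below the top 10 thus added 1 peak in a listed gene, the other Shox2 peak (3780 bp). They also held Evx2 (3186 bp), a related gene that the list did not name. Others at these ranks were Snx9 (4002 bp), Ankrd46 (3997 bp), Arc (3956 bp) and Plppr4 (3572 bp).

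Several of these peaks were about as long as the gene beneath them. The Zic2 peak, chr14:122475845-122480199, covered most of a 4.95 kb gene. The Nkx6-1 peak, chr5:101658362-101663621, lay on a 5.53 kb gene and ran 822 bp past its lower end. Shox2, 10.0 kb long, carried 2 peaks, of 5309 and 3780 bp, whose midpoints were 4708 bp apart. They nearly adjoined, at chr3:66975498-66980806 and chr3:66971554-66975333, and were counted as 2 peaks throughout. The Sim1 peak, chr10:50891564-50905214, was an exception in gene size: it covered the 5′ end of a 94.5 kb gene and began 3134 bp outside it.

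A list of homeobox, T-box, Zic, GATA and related factors, written after these widths had been seen, put the pattern in numbers. It had 235 short genes with room for an interior peak, of median length 6.62 kb, and 17 were hosts (7.23%, 4.27% to 11.3%), with 18 peaks. One of the planned lists, of Sox, Fox, Pax, Lhx, Pou and Hox genes, had 3 hosts of 116 (2.59%, 0.537% to 7.37%; median length 6.47 kb). This share was close to the 2.43% over all short genes. The hosts were Foxa1, Foxb1 and Pax3. For genes under 10 kb the background was 0.428%, but Pax3, at 95.9 kb, fell in the class where it was 8.13%. For the 18 peaks of the list written after the widths were seen, the median width was 2956.5 bp, with quartiles of 1982 and 4326 bp. Of them, 13 (72.2%, 46.5% to 90.3%) were 2 kb or wider. The other 416 interior peaks had a median of 1370 bp, and 64 (15.4%, 12.1% to 19.2%) reached 2 kb. These groups also differed in their hosts, with median host lengths of 10.5 kb for the 18 and 52.2 kb for the 416. Median distances to the nearest gene end were 3.07 and 11.7 kb. In genes under 50 kb, 25.6% of all interior peaks reached 2 kb. Widths were not compared at matched host length or position. Not every peak at such a gene was wide: Otx2 had 891 bp, Pax3 1043 bp and Prrx1 1110 bp. Related genes that the list did not name had widths of 3186 bp at Evx2, 1879 bp at Hlx and 1100 bp at Nr2f2. Since the list was written from the widest peaks, these values describe the pattern and do not test it. The peak list does not tell whether these genes are expressed in the sorted nuclei, and IgG signal at these positions was not analysed here.

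**Figure D2:**
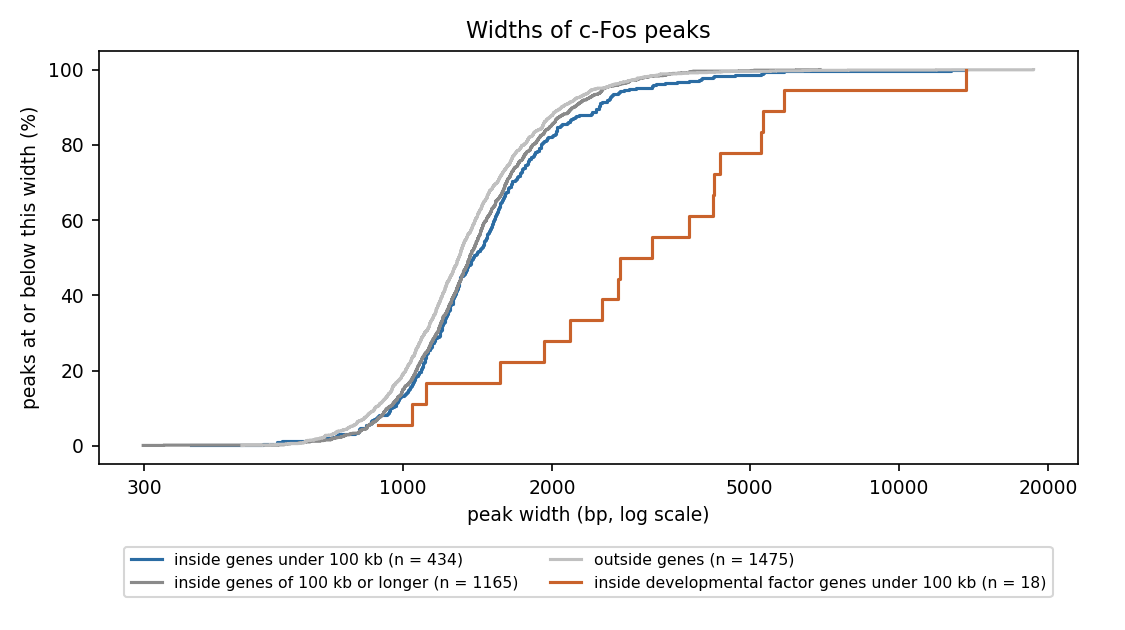
Cumulative share of peaks (%) at or below each width (bp, log axis) for peaks inside short genes, inside genes of 100 kb or longer, outside genes, and inside short developmental factor genes. The curves of the first 3 classes run close together, and that of the 18 peaks in developmental factor genes lies to the right, with a median of 2956.5 bp.

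Over all 434 interior peaks the median width was 1385 bp (95% interval of the median 1321 to 1468 bp), with quartiles of 1122 and 1781 bp. This was close to the 1362 bp (1335 to 1395 bp) of peaks inside longer genes, above the 1295 bp (1271 to 1315 bp) of peaks outside genes, and below the 1494 bp (1414 to 1609 bp) of gene-end peaks. Peaks of 2 kb or wider made up 17.7% (14.3% to 21.7%) inside short genes, 14.6% (12.6% to 16.8%) inside longer genes, 12.2% (10.6% to 14.0%) outside genes and 21.4% (16.1% to 27.4%) at gene ends. The narrowest interior peaks were in Cdk8, a Mediator kinase gene (373 bp), Hgf, a growth factor gene (522 bp), and Potegl and Gda (557 bp each). Width is the length of the called region and not a measure of how strongly c-Fos was bound.

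Genes of inhibitory neurotransmission were hosts although the nuclei were sorted on an excitatory neuron tag. Gad2, which makes GABA, held a peak of 2786 bp at chr2:22621969-22624754. Slc32a1, the vesicular GABA transporter, held one of 2617 bp at chr2:158611967-158614583. These were 2 of the 21 short genes on the interneuron marker list (9.52%, 1.17% to 30.4%). Whether any interneuron nuclei entered the sort was not tested, since the list gives no level per cell or library.

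Marker lists of cell types and of hippocampal fields had 0 to 2 hosts each. Of the CA1 and pyramidal neuron list, Spink8 was 1 host of 21 (4.76%, 0.120% to 23.8%), and its peak also lay inside the predicted gene Gm51691. The astrocyte list had S100b, a calcium-binding protein gene, as 1 host of 16 (6.25%), and the vascular list had Rgs5, a pericyte marker, as 1 of 13 (7.69%). None of 16 oligodendrocyte lineage genes, 14 microglia genes or 11 dentate gyrus and CA3 genes was a host. These counts of 0 allow shares up to 18.8%, 21.4% and 27.3%, far above the background, so the lists are too short to tell marker groups apart.

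Genes of the excitatory synapse and of excitability had few hosts, and the intervals of their lists include the 2.43% over all short genes. Shank1, a postsynaptic density scaffold gene, was 1 of 20 glutamatergic genes (5.00%, 0.127% to 24.9%), with chr7:44321451-44323674, 2224 bp wide. Ion channels gave 4 of 129 (3.10%, 0.851% to 7.75%): the chloride/proton exchanger Clcn3, the fast potassium channel Kcnc4, the leak channel Kcnk12 and the cation channel kinase Trpm7. Kcnc4 held 2 peaks of 1788 and 2453 bp, 3650 bp apart at their midpoints. The Clcn3 peak, chr8:60953801-60955434, was centred 181 bp from an internal start, 28.7 kb into the gene. No gene of 22 on the neuropeptide and secretory granule list was a host, which allows up to 13.6%.

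Solute carriers, a large family of membrane transporters, had 16 hosts of 343 (4.66%, 2.69% to 7.46%), with a median length of 26.6 kb. Among them were Slc2a3, the neuronal glucose transporter gene (1545 bp), Slc1a1, a neuronal glutamate transporter gene (1694 bp), and Slc7a5, an amino acid transporter gene (1258 bp). For genes of 25 to 50 kb the share was 2.81%, which lies inside the interval of the solute carriers.

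Signalling and chromatin genes followed. Regulators of G proteins and small GTPases had 8 hosts of 147 (5.44%, 2.38% to 10.4%), the MAP kinase and dual-specificity phosphatase list had 3 of 61 (4.92%: Dusp19, Map4k5 and Mapk1ip1), and the kinase list had Camk2g, a calcium/calmodulin kinase gene, as 1 of 18 (5.56%). Chromatin regulators had 5 of 82 (6.10%, 2.01% to 13.7%), at a median length of 38.4 kb. They were the DNA demethylases Tet1 (1453 bp) and Tet2 (811 bp), the histone demethylases Kdm1a (1523 bp) and Kdm6b (2199 bp), and the histone deacetylase Hdac5 (1351 bp). Ubiquitin ligases and proteases had 7 of 261 (2.68%, 1.08% to 5.45%), and Zfp genes 7 of 370 (1.89%, 0.764% to 3.86%).

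At the other end, no olfactory, vomeronasal or taste receptor gene of 294 was a host, which allows up to 1.02%, and no keratin of 53, which allows up to 5.66%. Their median lengths were 9.55 and 7.07 kb, in the class where the background was 0.428%. The GPCR list had 1 host of 108 (0.926%, 0.0234% to 5.05%), the synaptic adhesion receptor Adgrb1. Matrix genes had 1 of 81 (1.23%, 0.0313% to 6.69%), Col9a1. The housekeeping list, of median length 5.82 kb, had 1 of 24 (4.17%, 0.105% to 21.1%), Ywhaz, a 14-3-3 protein gene with a 3182 bp peak. The housekeeping share was above the 2.43% over all short genes, which the GPCR, matrix and housekeeping intervals all include. Across all lists written as gene names, 16 of 271 short genes were hosts. Further hosts with known roles in neurons, picked out after the hosts were seen, were Bsn, encoding the active zone protein Bassoon (chr9:108137012-108138349), and Syn1, encoding synapsin I (chrX:20914713-20915857). Gap43, a growth cone protein gene, and Ptpn5, the gene of the striatal-enriched phosphatase STEP, held peaks of 1192 and 968 bp.

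Short genes held fewer interior peaks per length of sequence than longer genes. The sequence where an interior peak could lie came to 379 Mb, which gives 1.14 peaks per Mb (exact Poisson interval 1.04 to 1.26). Genes of 100 kb or longer offered 606 Mb and held 1.92 per Mb (1.81 to 2.03). Sequence outside genes held 0.979 per Mb (0.930 to 1.03) over 1506 Mb, which includes assembly gaps, and the 1 kb flanks of gene ends held 2.82 per Mb (2.46 to 3.22) over 78.0 Mb. The intervals for short and longer genes do not overlap, though neighbouring peaks are not independent, and the intervals do not allow for that.

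**Figure D3:**
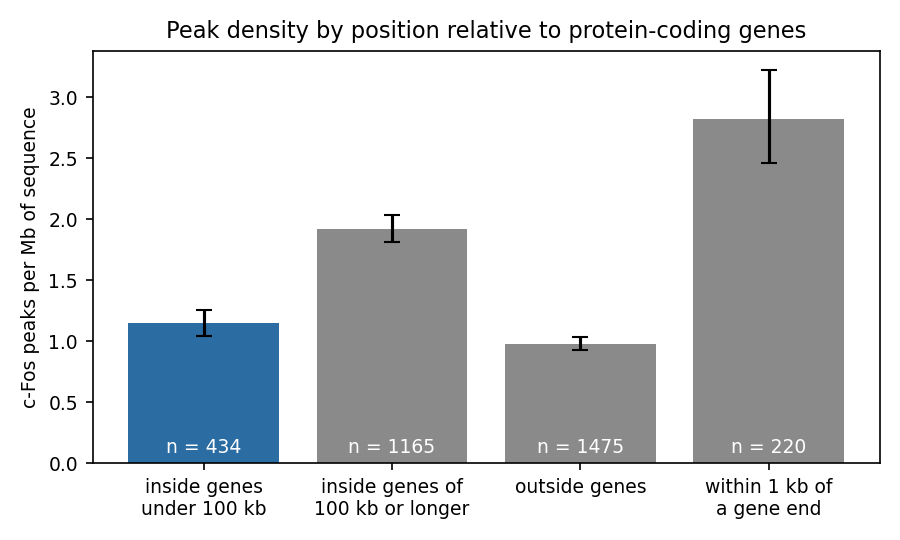
Peaks per Mb of available sequence in each of the 4 classes, with exact 95% Poisson intervals as bars. Short gene interiors, at 1.14 per Mb, lie between sequence outside genes (0.979) and longer genes (1.92), and gene ends are highest (2.82).

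Within short genes, the density did not climb steadily with length. It was 1.25 per Mb (0.786 to 1.90) in genes under 10 kb, where there were 22 peaks in 17.5 Mb, 0.940 (0.732 to 1.19) in genes of 10 to 25 kb, 0.971 (0.802 to 1.16) in genes of 25 to 50 kb and 1.35 (1.18 to 1.53) in genes of 50 to 100 kb. The first interval overlaps all the others, whereas that of 50 to 100 kb lies just above that of 25 to 50 kb. The share of genes with a peak, in contrast, rose with each step from 0.428% to 8.13%, as the room per gene grew. Host genes therefore had a median length of 51.2 kb, against 17.9 kb for all short genes with room. The 10 shortest hosts were Foxb1 (3.23 kb), Arc (3.49 kb), Crlf2 (4.42 kb), Zic2 (4.95 kb), Hlx (5.35 kb), Zfp281 (5.49 kb), Nkx6-1 (5.53 kb), Pdrg1 (7.13 kb), Ensa (7.14 kb) and Foxa1 (7.40 kb). Of these, 6 encode transcription factors, Foxb1, Zic2, Hlx, Zfp281, Nkx6-1 and Foxa1. They were counted after the hosts were seen. The share of transcription factors among all genes of such length was not counted, so the 6 have no background beside them.

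**Figure D4:**
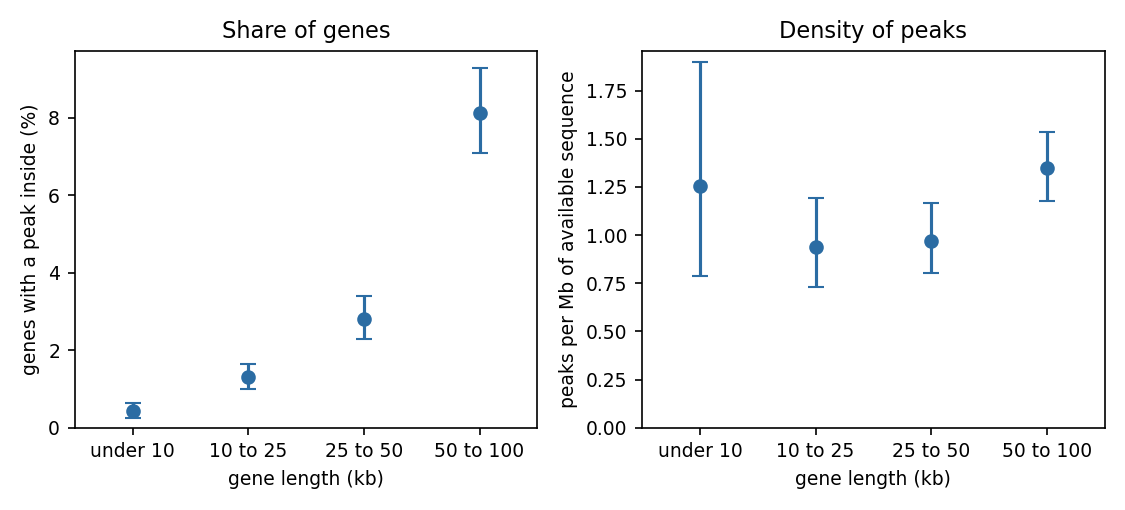
Share of short protein-coding genes that contain an interior peak (%) and interior peaks per Mb, by gene length in 4 classes, with exact 95% intervals as bars. The share climbs from 0.428% to 8.13%, whereas the density stays between 0.940 and 1.35 per Mb.

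Interior peaks lay along the whole gene. Their midpoints were a median of 11.2 kb from the nearer end of the host (quartiles 4.54 and 19.8 kb), 120 of 434 within 5 kb and 205 within 10 kb. Strand was known for the hosts of 338 peaks, and each of those genes was divided into 5 equal segments from 5′ to 3′. The segments held 69, 75, 63, 84 and 47 peaks. Per Mb of available sequence this was 1.29 (1.00 to 1.63) in the 5′ segment, 1.14 (0.897 to 1.43), 0.951 (0.731 to 1.22) and 1.28 (1.02 to 1.59) in the next 3, and 0.883 (0.649 to 1.17) in the 3′ segment. All 5 intervals overlap, which is not a test of equal density. The rule also left out peaks within 1 kb of a gene end. A preference for either end was not tested.

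**Figure D5:**
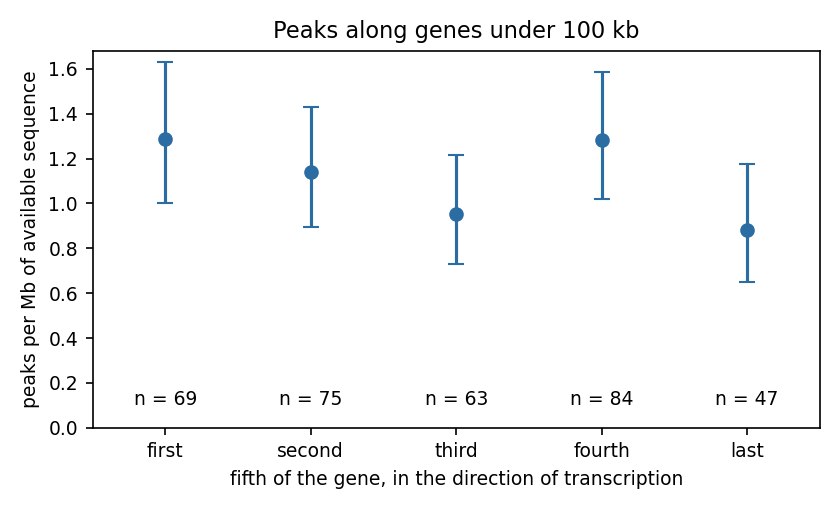
Interior peaks per Mb of available sequence in 5 equal gene segments from 5′ to 3′, for the 338 peaks whose host has a known strand, with exact 95% Poisson intervals as bars. Values run from 0.883 to 1.29 and all intervals overlap.

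Some interior peaks overlapped a listed start of their host. That start was not always an alternative inside the gene, since for Gad2 it was the only listed start. A listed start window of the host itself was overlapped by 24 of 338 peaks (7.10%, 4.60% to 10.4%), against 6 of 893 peaks inside longer genes (0.672%, 0.247% to 1.46%). Midpoints within 1 kb of a start of the host gave 20 of 338 (5.92%, 3.65% to 8.99%) and 6 of 893. A longer gene has more interior for each start, and that difference in room was not adjusted for. Beside the genes already named, such peaks were found at Sin3a, a co-repressor scaffold (282 bp from the start), Sp2 (34 bp), Otx2 (54 bp) and the homeobox gene Hmx2 (244 bp).

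Interior peaks sometimes came in groups. Another peak midpoint lay within 12500 bp of 59 interior peaks (13.6%, 10.5% to 17.2%), close to the 15.7% (13.7% to 17.9%) inside longer genes and the 13.1% (11.4% to 14.9%) outside genes. Neighbouring interior peaks formed 21 groups of 43 peaks, and each group stayed within 1 gene. Ptpdc1, a phosphatase gene, had the only group of 3, with midpoints 8546 and 6566 bp apart over chr13:48593387-48610535. The other genes with 3 interior peaks were Fndc7, a fibronectin domain protein gene, and Cemip2, a hyaluronidase gene, whose peaks spread over 25.3 and 33.2 kb. Close pairs were found in Inhba (2228 bp between midpoints), Golt1b (2346 bp), Klf6 (2488 bp) and Cflar (2730 bp).

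Other transcripts rarely shared these positions. A non-coding gene covered the midpoint of 16 peaks (3.69%, 2.12% to 5.92%), and 12 midpoints (2.76%, 1.44% to 4.78%) were within 1 kb of an end of a non-coding gene, against 2.83% (1.96% to 3.96%) in longer genes. In 67 cases (15.4%, 12.2% to 19.2%) the end of another protein-coding gene was within 10 kb, against 1.12% of peaks inside longer genes, 14.0% of peaks outside genes and 68.6% of gene-end peaks. A long gene leaves less of its interior near the ends of other genes, so the contrast with longer genes is tied to the length that the rule used. No interior peak overlapped a listed miRNA hairpin. A pair of protein-coding genes covered the midpoint in 2 cases, Rtf2 with Gcnt7 and Spink8 with Gm51691.

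By chromosome, the autosomes held 430 interior peaks, 1.18 per Mb (1.07 to 1.30). The X chromosome held 4, 0.275 per Mb (0.0748 to 0.703), in Syn1, Rab33a, a vesicle traffic GTPase gene, Pls3, an actin-bundling protein gene, and Radx, a DNA replication gene. Among autosomes the density ran from 0.604 per Mb (0.276 to 1.15) on chromosome 12 to 1.96 per Mb (1.28 to 2.88) on chromosome 15.

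The limits of the rule passed through a continuous set of peaks. Just over 1 kb from an end were peaks in Aknad1 (1008 bp), Jcad (1059 bp) and LOC115488765 (1062 bp), and just under it were Sgtb (906 bp), Helt (941 bp) and a 4981 bp wide peak in Otp (983 bp). The longest hosts were Stard9 (99.9 kb), Spred2 (99.6 kb) and Ranbp3l (99.4 kb), and the nearest genes beyond the limit were Map2k4 (100.1 kb), Sestd1 (100.3 kb) and Specc1l (100.4 kb). The peaks of 6 genes, Shox2, Nkx6-1, Foxb1, Sim1, Arc and Jcad, reached past a gene end although their midpoints were interior.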

How the data were processed

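CUT&RUN was run in 12 samples, 4 groups of 3 replicates taken from the sample labels. For the kainic acid group the authors deposited positions of replicated c-Fos peaks against IgG, as 3 columns (chromosome, start, end) with no score or header. This list belongs to 1 sample in GEO and was taken to stand for all 3 replicates. The tools SEACR 1.1, bedtools 2.27.1, Bowtie2 2.2.9 and Trimmomatic 0.36 and the builds mm10 and sacCer3 are named per the submitters' processing notes. Their roles, the peak threshold and the way replicates were combined were not given in the sources used here, and read depth is unknown.

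Positions are 1-based on mm10. Peaks were assigned by midpoint to RefSeq genes of GRCm38.p6 with Python 3.11.15, pandas 2.3.3, numpy 2.4.6 and scipy 1.17.1. Strand and starts came from a RefSeq start table that does not list every gene. It has no entries for chromosome 18, which held 15 interior peaks. The start table matched 307 of the 392 host genes. The assignment was tested on planted peaks. All comparisons are descriptions. Intervals are exact binomial (Clopper-Pearson), exact Poisson or, for medians, order-statistic intervals, all at 95%, and the upper limit beside a count of 0 is 3 counts of the total. The planned search for TGANTCA in the peaks needs a genome sequence and was limited to start windows.

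Gene lists (28) were matched by symbol or name pattern. The members, lists and rules were chosen with earlier results of these data known. Named genes are hosts with 3 peaks and those with 2 that lie densest, hosts of the 10 widest and 3 narrowest peaks, listed genes with a peak (up to 4 per family), the 10 shortest hosts, and peaks beside the limits of the rule. Genes with a start-window motif or start, X-linked hosts, further neuronal hosts and the developmental factor list were added with their values in view. Some genes that meet the rule are not reported here. Alternatives changed the peaks used, the distance and length limits, overlapping genes, gene types, the neighbour distance and the width limit.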

Additional observations from a re-analysis of the deposited data

How the results depend on the processing

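With only peaks at or above the median width, short gene interiors held 0.609 peaks per Mb, 1.36% of short genes were hosts, the median width was 1736 bp, 33.3% were 2 kb or wider and 9.96% had a neighbour. With a limit of 2 kb from gene ends, 11.7% of peaks were interior, a median of 12.6 kb from the nearer end. With genes under 50 kb these values were 6.28% of peaks, 0.984 per Mb, 1.39% of genes, 1492 bp, 25.6% wide, 19.3% with a neighbour and 5.82 kb from an end. With genes under 150 kb they were 18.7% of peaks, 3.16% of genes and 14.3 kb. Counting all gene types gave 17.6% of peaks. A neighbour within 5 kb was found for 6.68% and within 25 kb for 19.8%. Widths from 1.5 kb were reached by 42.4% and from 3 kb by 4.84%. Each of these settings changes which peaks or genes enter the count. The other 44 values moved by less than their own intervals, or, for gene list hosts, by less than 1.5 times. Chosen after seeing the data were leaving out peaks over 5 kb, the X chromosome or the developmental factor genes, and none of these moved a value past its interval.

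No paired analysis was possible because a list of positions carries nothing per replicate, and leaving out single replicates was not possible either. The motif search over whole peaks was not run, since it needs a genome sequence. Peaks weaker than the unknown threshold are missing from every count.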
